A study of Mus musculus with 9 samples.

Results

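The 10 genes described here encode the endothelin ligands (Edn1, Edn2, Edn3), their activating protease (Ece1), their receptors (Ednra, Ednrb), basic fibroblast growth factor (Fgf2) and 3 fibroblast growth factor (FGF) receptors (Fgfr1, Fgfr2, Fgfr3). They were taken by gene symbol from the 21769 genes counted in each library, and all 10 were found. All 10 passed the filter on low counts, Fgf2 only through the libraries of the rd10 group described below. Polyadenylated RNA of whole mouse retina was sequenced in 3 libraries per group, each made from 2 retinae. The rd10 mice, taken at postnatal day 61, carry a mutant Pde6b gene, whose product belongs to the rod phosphodiesterase, and the labels call their retinae degenerated. The mice expressing green fluorescent protein (GFP) were read as the line labelled Gg13, taken at day 42, since that is the age left over. The wild type mice were taken at day 48. The labels call the retinae of both of these groups normal. The driver of GFP, the strains and any treatment of the animals are not given in the sources used here. Age coincided with group, so the effects of age and genotype cannot be told apart.

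Endothelins are short peptides cut from longer precursors by endothelin-converting enzyme and read by G protein-coupled receptors. In the injured mouse retina, a known relay runs from Müller glia, which release leukaemia inhibitory factor (LIF), to photoreceptors, which make endothelin 2, and back to Müller glia, which carry the endothelin receptor EDNRB. FGF2 is a known survival factor of photoreceptors, and its receptors are tyrosine kinases that signal through the MAP kinase cascade.

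The 3 endothelins share most of their active peptide, and the codons of the 21 residues of each mature peptide show how alike the 3 ligand transcripts are in this stretch. The stretch lies in exon 2 of 5 of each gene, at chr13:42303649-42303711 for Edn1, chr4:120161951-120162013 for Edn2 and chr2:174761749-174761811 for Edn3, all on the plus strand of GRCm38 in the GENCODE annotation. Capitals mark the positions at which the 3 sequences are not all the same.
Edn1: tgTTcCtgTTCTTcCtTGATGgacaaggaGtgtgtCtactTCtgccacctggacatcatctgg
Edn2: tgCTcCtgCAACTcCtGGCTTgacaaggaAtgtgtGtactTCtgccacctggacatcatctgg
Edn3: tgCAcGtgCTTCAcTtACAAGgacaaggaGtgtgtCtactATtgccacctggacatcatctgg
Of the 63 bases, 45 were the same in all 3 genes. Edn1 and Edn2 shared 53 bases, Edn1 and Edn3 shared 50, and Edn2 and Edn3 shared 48. Most of the differing bases lie in the first 7 codons of the stretch.

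Library totals ran from 9597635 to 12149448 counts, and levels are given as counts per 1000000 (CPM) after scaling by the trimmed mean of M values. Pde6b had 6.01 to 30.1 CPM in rd10 libraries, against 3071 to 3378 in GFP and 2683 to 3688 in wild type. All 7 rod markers fell in rd10, where their summed level was 318 to 690 CPM, against 35834 to 41433 CPM in GFP and 34535 to 44910 CPM in wild type. In whole tissue, fewer cells of a type and less RNA per cell cannot be told apart. Some libraries stood apart from the others of their group. The summed level of 14 lens genes was 6117 CPM in rd10 2, 4851 in GFP 1, and 5684 and 2602 in wild type 2 and wild type 3, against 48.9 to 138 in the other 5 libraries. The level of genes with transcripts of 6863 bases or more was set against that of genes with 1365 bases or fewer, relative to the mean over libraries. On this long-minus-short measure GFP 2 lay at -1.03 and wild type 3 at -0.72 on the log2 scale. Values without these libraries are given for some of the results that they move.

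Ednrb and Fgfr1 rose in rd10 retinae against both other groups, Ece1 rose against GFP, and no member fell. In rd10 against wild type, 2 of the 10 members were called higher at an adjusted p under 0.05 in edgeR's quasi-likelihood test, against 14.5% of the 14300 genes tested, which is near that background, so nothing is read from the count itself. In rd10 against GFP, 3 of 10 were called higher, against 15.2% of all genes. None was called lower in either comparison, where 13.9% and 15% of all genes were. These 2 comparisons share the rd10 libraries and are not independent of each other. The median log2 difference of the 10 members was 0.79 in rd10 against wild type, with -0.03 over all genes. It was 1.01 in rd10 against GFP, with -0.02 over all genes. Marker lists of retinal cell types shifted against wild type too. Their medians were 1.01 for Müller glia, 1.11 for bipolar, 0.70 for ganglion and 0.59 for amacrine cells, with -7.14 for rods and -0.19 for cones. The part of these cells in the median or in any call was not tested. Every rd10 library lay above every wild type library for 6 members (Edn1, Ece1, Ednra, Ednrb, Fgf2 and Fgfr1), which held for 26.1% of all genes. Against GFP the 6 were Edn3, Ece1, Ednra, Ednrb, Fgfr1 and Fgfr2, and 25.1% of all genes did so.

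**Figure D1:**
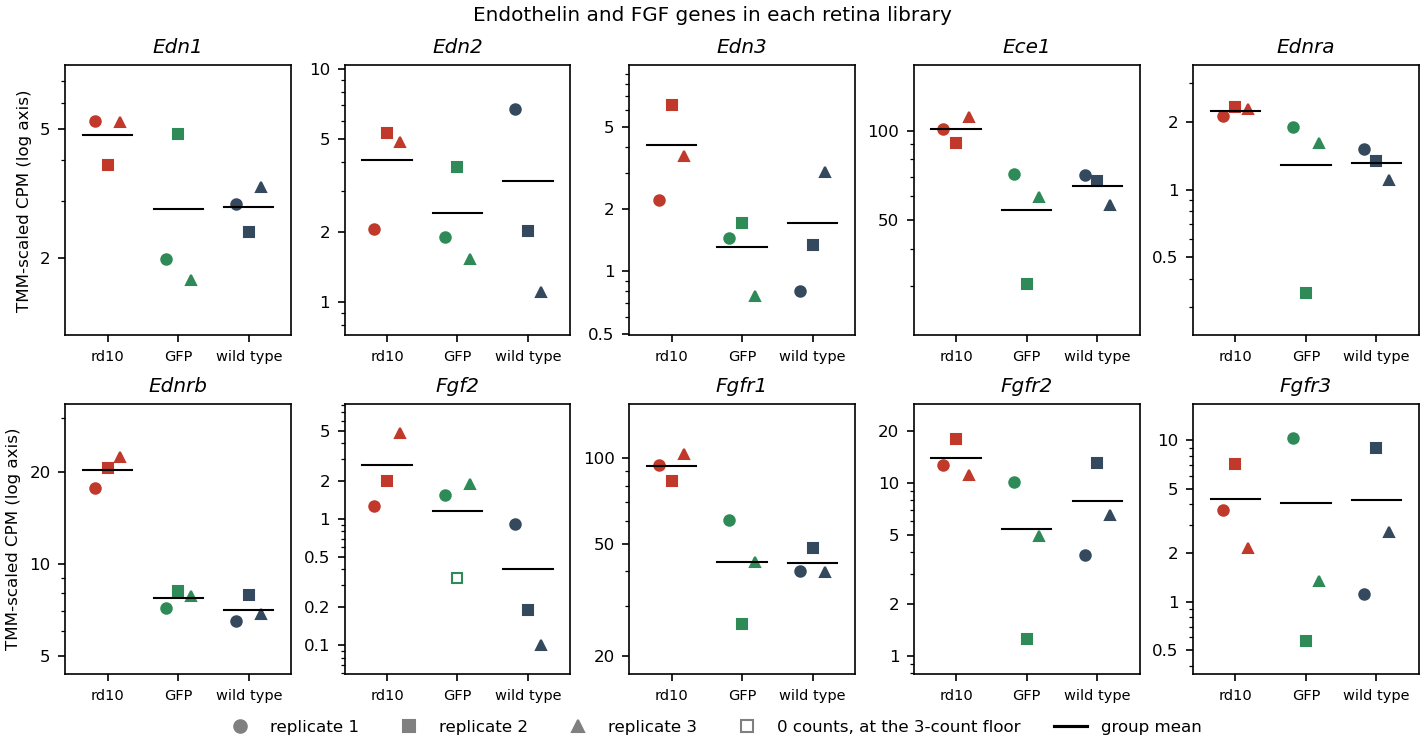
TMM-scaled CPM (log axis) of each of the 10 genes in the 9 libraries, by group, with 1 point per library, its replicate number as the marker shape the group mean as a line, and the 0 counts of Fgf2 in GFP 2 as an open marker at the 3-count floor. Ednrb and Fgfr1 lay higher in all 3 rd10 libraries than in any GFP or wild type library, while Fgfr3 spread widely within each group.

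Edn2, the endothelin of the photoreceptor relay (chr4:119834029-119839965 of mm9, plus strand), did not separate the groups. It had 2.05, 5.31 and 4.87 CPM in rd10, 1.90, 3.78 and 1.53 in GFP, and 6.77, 2.02 and 1.10 in wild type. The highest of the 9 values was that of wild type 1, and the groups overlapped. The log2 difference of rd10 from wild type was 0.31 ± 0.63 (SE, adjusted p = 0.739) and that of rd10 from GFP was 0.77 ± 0.65 (adjusted p = 0.379). Without wild type 1, which had 67 counts against 21 and 11 in the other wild type libraries, the difference from wild type was 1.41, and over all alternatives it lay between -0.97 and 1.41 with no call. Edn2 had 11 to 67 counts per library.

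Edn1, the main endothelin of vascular endothelium, had 5.29, 3.86 and 5.24 CPM in rd10, 2.00, 4.81 and 1.72 in GFP, and 2.93, 2.41 and 3.31 in wild type. The rd10 libraries lay above the wild type libraries, but GFP 2 lay among them. The log2 differences were 0.73 ± 0.41 against wild type (adjusted p = 0.198) and 0.77 ± 0.41 against GFP (adjusted p = 0.175). Without GFP 2 the difference from GFP was 1.37 (adjusted p = 0.0208, over alternatives 0.0191 to 0.399).

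Edn3, a ligand of EDNRB in neural crest development, had 2.21, 6.36 and 3.62 CPM in rd10, 1.45, 1.72 and 0.763 in GFP, and 0.808, 1.35 and 3.01 in wild type. Every rd10 library was above every GFP library, and wild type 3 lay between rd10 1 and rd10 3. The log2 difference was 1.63 ± 0.58 against GFP (adjusted p = 0.0536) and 1.23 ± 0.56 against wild type (adjusted p = 0.122), so neither passed. The comparison with GFP passed in 8 of 19 alternatives, DESeq2 among them (adjusted p = 0.027, over alternatives 0.0243 to 0.236). Against wild type it passed in 1, without wild type 3 and GFP 2 (log2 difference 1.89, adjusted p = 0.0301, over alternatives up to 0.392).

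Ece1, which cuts big endothelins to their active form, had the highest mean level per transcript length in every group. It had 101, 90.8 and 111 CPM in rd10, 71.6, 30.5 and 59.9 in GFP, and 71.0, 67.8 and 56.2 in wild type. The rd10 libraries lay above all others, and GFP 2 was the lowest. Ece1 lies at chr4:137418152-137521144 of mm9, plus strand. It was 1.87-fold higher in rd10 than in GFP (log2 difference 0.90 ± 0.26, adjusted p = 0.0246). Without GFP 2 the difference from GFP was 0.62 (adjusted p = 0.0157), and over alternatives the difference lay between 0.62 and 1.23. Against wild type the log2 difference was 0.64 ± 0.26 (adjusted p = 0.0874), which did not pass. The call against GFP ended without rd10 1 (adjusted p = 0.0689), rd10 3 (0.0796) or GFP 3 (0.0512) and with only the 2 groups fitted (0.0525), over alternatives from 0.00435. The difference from wild type passed in 4 of 19 alternatives, among them without GFP 2 (0.00449, over alternatives up to 0.477), a library that enters this comparison through the shared estimate of spread.

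The receptor Ednrb was the member with the smallest adjusted p in both comparisons. It had 17.7, 20.5 and 22.4 CPM in rd10, 7.17, 8.14 and 7.82 in GFP, and 6.46, 7.89 and 6.82 in wild type. The lowest rd10 library was above all GFP and wild type libraries, which lay close together. Means were 20.2 ± 2.35 CPM in rd10, 7.71 ± 0.496 in GFP and 7.06 ± 0.743 in wild type (SD, n = 3 each). Ednrb was 2.86-fold higher in rd10 than in wild type (log2 difference 1.51 ± 0.20, adjusted p = 0.000403) and 2.62-fold higher than in GFP (1.39 ± 0.20, adjusted p = 0.000655). Over 19 alternatives the difference from wild type lay between 1.39 and 1.80 and passed in 18, and that from GFP lay between 1.25 and 1.72 and passed in 19. The exception was the fit without the 4 libraries with lens transcripts, which left 1 wild type library, whose spread had to be taken as that of the other groups (1.63, adjusted p = 0.0809, lowest over alternatives 3.37e-10).

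Ednrb is at chr14:104213842-104243390 on the minus strand of mm9, and no other listed gene overlaps it. Its promoter in RefSeq, from 250 bases before to 50 after the start, is shown because Ednrb had the clearest difference among the members. On GRCm38.p6 this window is chr14:103843652-103843951, minus strand.
Ednrb promoter: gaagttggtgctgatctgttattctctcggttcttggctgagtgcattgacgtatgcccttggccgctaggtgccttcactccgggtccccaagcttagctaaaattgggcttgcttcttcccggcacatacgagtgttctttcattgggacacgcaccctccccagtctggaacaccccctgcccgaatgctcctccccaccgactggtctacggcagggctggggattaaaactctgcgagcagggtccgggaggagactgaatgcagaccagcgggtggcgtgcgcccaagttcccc
Neither strand of it held TTCNNNGAA (the STAT motif), TGANTCA (AP-1), ACGTG (hypoxia response) or AACAAT (SOX). These occur in 8.3%, 7.81%, 19.6% and 10.7% of 32851 promoters of this length. Promoters were matched for 9 of the 10 members, and ACGTG was the only one of the 4 motifs found in them, in Ece1, Edn1 and Fgfr2. These letters being absent from a window says nothing about the factors.

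Markers of several other cell types rose beside Ednrb. Over all genes 14.5% were called higher and 13.9% lower in rd10 against wild type. Of 10 Müller glia markers, 9 rose in rd10 against wild type, with a median log2 difference of 1.01 and a summed level of 10345 to 10915 CPM in rd10, 5681 to 6545 in GFP and 5006 to 6431 in wild type. Glul, the glutamine synthetase of these cells, was 1.86-fold higher (adjusted p = 0.00549). All 7 reactive glia markers rose, with a median of 3.21 and sums of 886 to 1162 CPM in rd10, 180 to 277 in GFP and 63.6 to 287 in wild type, and Gfap, a filament protein of reactive glia and astrocytes, rose 9.25-fold (adjusted p = 2.05e-05). Melanocytes carry EDNRB too, and 2 of 5 tested pigment cell markers, Tyrp1 and Dct, rose, with sums of 119 to 156 CPM in rd10, 52.3 to 55.1 in GFP and 42.3 to 91.0 in wild type. In rd10 against wild type 4 of 4 astrocyte, 6 of 7 microglia, 3 of 5 bipolar cell, 4 of 6 ganglion cell and 4 of 5 amacrine cell markers rose too, with medians of 1.74, 1.56, 1.11, 0.70 and 0.59 in that order. Of 6 cone markers 1 rose and 1 fell. These markers moved with Fgfr1 as well, and their part in the level of either gene was not tested.

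Ednra, the endothelin receptor of vascular smooth muscle, was low throughout, with 2.13, 2.33 and 2.29 CPM in rd10, 1.90, 0.344 and 1.62 in GFP, and 1.51, 1.35 and 1.10 in wild type. The value of GFP 2 stood for 3 counts. The rd10 libraries lay above the others, but the log2 differences of 0.76 ± 0.52 against wild type (adjusted p = 0.292) and 0.78 ± 0.52 against GFP (adjusted p = 0.276) did not pass in any alternative. Without GFP 2 the difference from GFP was 0.35 (adjusted p = 0.578). None of 8 pericyte and smooth muscle markers passed, with sums of 70.6 to 93.0 CPM in rd10, 58.7 to 81.4 in GFP and 41.3 to 88.9 in wild type. Of 9 endothelial markers 1 rose, Kdr (3.71-fold, adjusted p = 0.00353), where 14.5% of all genes rose, and the list's median was -0.17. Its sum, 554 to 775 CPM in rd10, 162 to 303 in GFP and 158 to 262 in wild type, was mostly Kdr.

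Fgf2 had the lowest mean level per transcript length in every group. Its counts were 16, 25 and 65 in rd10, 17, 0 and 20 in GFP, and 9, 2 and 1 in wild type, or 1.26, 2.01 and 4.80 CPM in rd10, 1.54, 0 and 1.91 in GFP, and 0.909, 0.192 and 0.100 in wild type. Every rd10 library was above every wild type library, while GFP 1 and GFP 3 lay among the rd10 values, and the 0 of GFP 2 allows up to 0.344 CPM at 3 counts. The fitted log2 difference was 2.73 ± 1.03 in rd10 against wild type (adjusted p = 0.0689) and 1.19 ± 0.91 in rd10 against GFP (adjusted p = 0.334). The first rests on 12 wild type counts in all. No wild type library reached the filter's minimum count of 10, and in GFP only GFP 1 and GFP 3 did. Fgf2 thus passed the filter only through its rd10 libraries, which limits what its difference and separation from wild type show. On leaving out each library the difference from wild type ran from 2.03 (without rd10 3) to 4.12 (without wild type 1). The difference from GFP ran from 0.49 (without rd10 3) to 1.73 (without GFP 3). The difference from wild type passed in 5 of 19 alternatives, with DESeq2 (adjusted p = 0.0317), scaling by library totals (0.0436), only the 2 groups fitted (0.0182), without GFP 2 (0.0142) and without wild type 3 and GFP 2 (0.0448), over a range of 0.0142 to 0.585. The comparison with GFP passed in none. Fgf2 has the longest transcript of the 10 members, 5973 bases. Its counts were highest in rd10 3 and lowest in GFP 2, where the long-minus-short measure was highest (0.79) and lowest (-1.03). In wild type 9, 2 and 1 counts stood beside measures of 0.40, -0.38 and -0.72, while rd10 2 (0.14) had more counts than rd10 1 (0.29). In the fit with the trend of transcript length removed, Fgf2 did not pass in either comparison. Beyond that fit, the part of the measure in the level of Fgf2 was not tested.

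Fgfr1, a known receptor of FGF2, rose against both groups. It had 94.4, 83.5 and 104 CPM in rd10, 60.3, 25.9 and 43.0 in GFP, and 40.1, 48.3 and 39.7 in wild type. The rd10 libraries lay above all others, the GFP libraries spanned the wild type range, and GFP 2 was again the lowest library. Means were 93.8 ± 10.1 CPM in rd10, 43.1 ± 17.2 in GFP and 42.7 ± 4.85 in wild type (SD, n = 3 each). Fgfr1 lies at chr8:26629244-26686186 of mm9, plus strand. It was 2.20-fold higher in rd10 than in wild type (log2 difference 1.14 ± 0.26, adjusted p = 0.00875) and 2.17-fold higher than in GFP (1.12 ± 0.26, adjusted p = 0.00885). Over 19 alternatives the differences lay between 0.93 and 1.42 against wild type and between 0.86 and 1.52 against GFP, and the call was lost only against wild type without the 4 libraries with lens transcripts (1.30, adjusted p = 0.121, lowest over alternatives 0.000322).

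**Figure D2:**
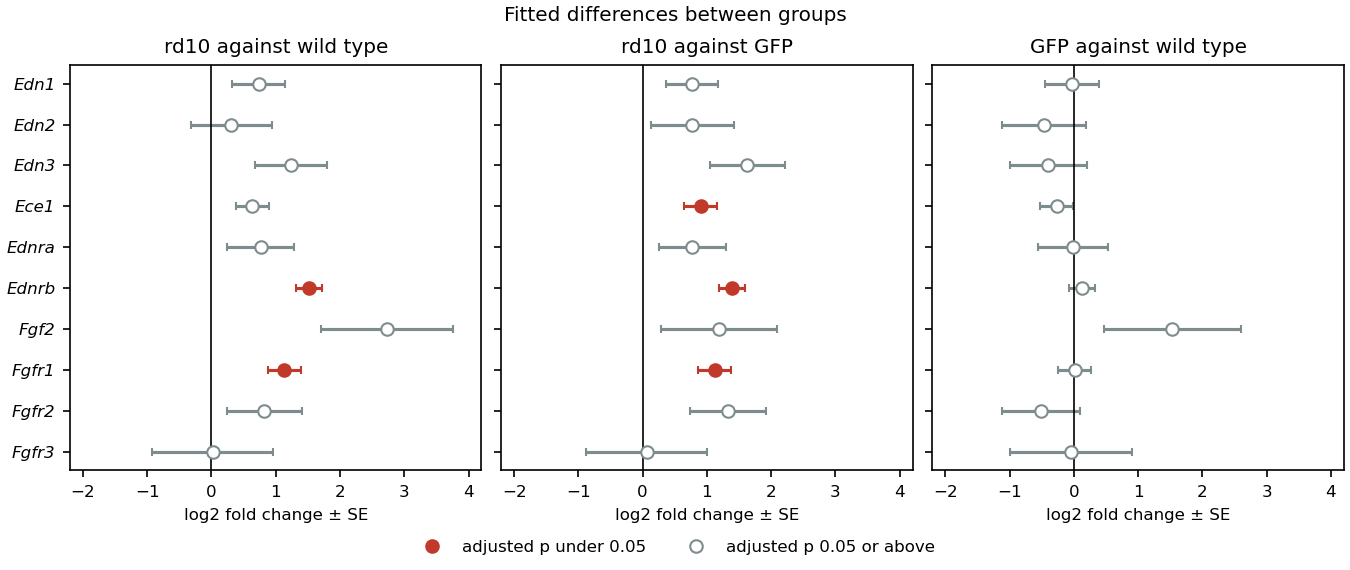
Log2 fold change ± SE of the 10 genes in rd10 against wild type, rd10 against GFP and GFP against wild type (n = 3 libraries per group), with filled points for an adjusted p under 0.05. Ednrb and Fgfr1 are filled in both rd10 panels, Ece1 in that against GFP, and no gene in GFP against wild type.

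Fgfr1 and Ece1, with transcripts of 5041 and 4816 bases, were both lowest in GFP 2, the library with the lowest long-minus-short measure. That measure was 0.29, 0.14 and 0.79 in rd10, 0.51, -1.03 and 0.11 in GFP, and 0.40, -0.38 and -0.72 in wild type. With the trend of transcript length removed, Fgfr1 differed by 0.93 (adjusted p = 0.00443) from wild type and by 0.96 (adjusted p = 0.00363) from GFP. Ednrb differed by 1.39 and 1.25 (adjusted p = 0.000416 and 0.000756), and Ece1 by 0.46 and 0.75 (adjusted p = 0.0803 and 0.0107). The calls of the 3 genes were the same as without this step.

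**Figure D3:**
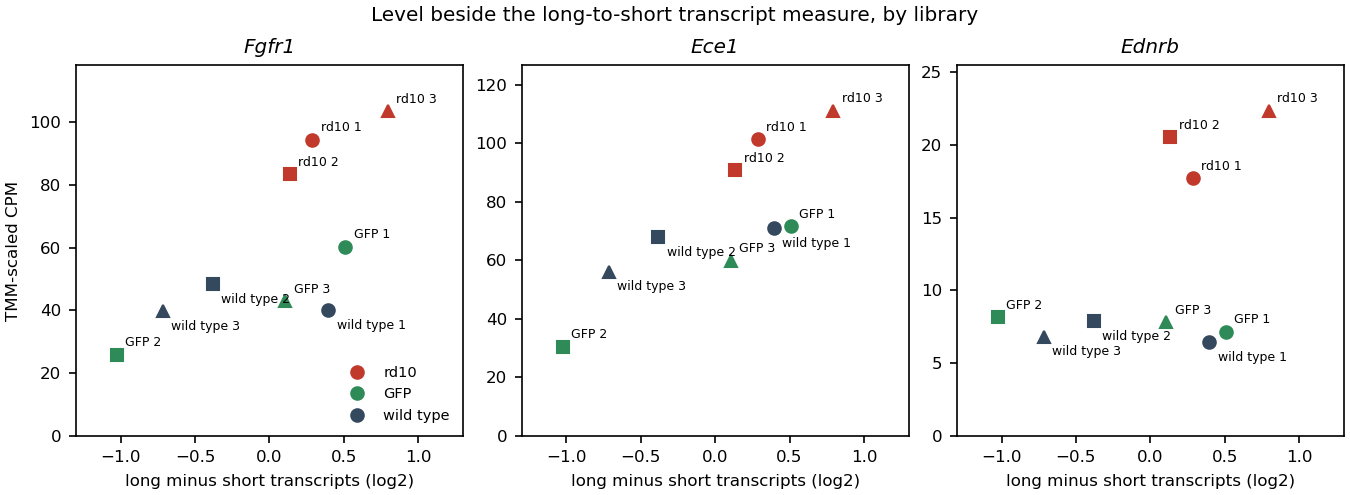
TMM-scaled CPM of Fgfr1, Ece1 and Ednrb in each library against the long-minus-short measure of transcript length (log2). GFP 2, at -1.03, is the lowest library for Fgfr1 (25.9 CPM) and Ece1 (30.5 CPM) but not for Ednrb (8.14 CPM), and the rd10 libraries are highest for all 3.

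Fgfr2 and Fgfr3, which are FGF receptors of lens fibre and glial cells among others, varied widely within groups. Fgfr2 had 12.6, 17.8 and 11.1 CPM in rd10, 10.1, 1.26 and 4.96 in GFP, and 3.84, 13.1 and 6.52 in wild type. Fgfr3 had 3.71, 7.16 and 2.14 CPM in rd10, 10.3, 0.573 and 1.33 in GFP, and 1.11, 8.95 and 2.71 in wild type. In each group both genes were highest in the library with the most lens RNA (rd10 2, GFP 1 and wild type 2). In GFP the long-minus-short measure was also highest in GFP 1 (0.51), and lowest in GFP 2 (-1.03), where both genes were lowest. In rd10 and wild type both genes were instead lowest where the measure was highest (rd10 3 at 0.79, wild type 1 at 0.40). Neither gene passed with the trend of transcript length removed. The parts of lens RNA and of the measure in this spread were not tested. The log2 differences of Fgfr2 were 0.82 ± 0.58 against wild type (adjusted p = 0.311) and 1.33 ± 0.60 against GFP (adjusted p = 0.111), and those of Fgfr3 were 0.02 ± 0.94 and 0.07 ± 0.94 (adjusted p = 0.989 and 0.963). Without the 4 libraries with lens transcripts they were 1.62 and 1.90 for Fgfr2 and 1.38 and 1.58 for Fgfr3, with adjusted p of 0.279 and 0.0648 and of 0.433 and 0.158, and over alternatives Fgfr3 changed sign. Fgfr2 passed against GFP in 2 of 19 alternatives, without GFP 1 (2.14, adjusted p = 0.0249) and with library totals (adjusted p = 0.0496, over alternatives up to 0.253).

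**Figure D4:**
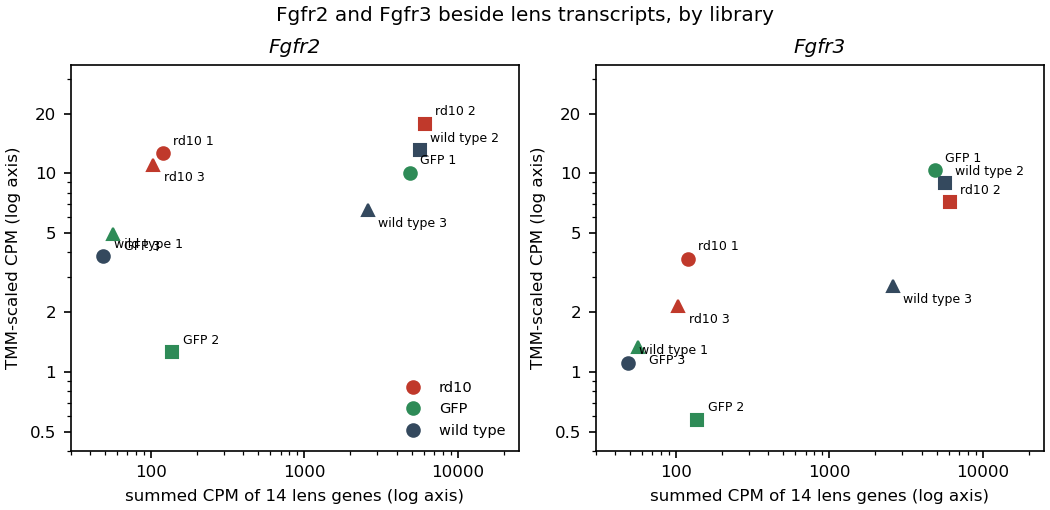
TMM-scaled CPM of Fgfr2 and Fgfr3 (log axis) in each library against the summed CPM of 14 lens genes (log axis). In each group the library with the highest lens sum, rd10 2, GFP 1 or wild type 2, has the highest value of both receptors, and the lowest Fgfr3 value, 0.573 CPM, is that of GFP 2.

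Divided by transcript length, the levels in rd10 ran from Ece1 (21.0 ± 2.11 CPM per kilobase, SD, n = 3) and Fgfr1 (18.6 ± 2.00) through Ednrb (4.92 ± 0.571), Fgfr2 (3.21 ± 0.815), Edn2 (2.79 ± 1.21), Edn1 (2.24 ± 0.379), Edn3 (1.30 ± 0.677), Fgfr3 (1.02 ± 0.605) and Ednra (0.621 ± 0.0290) to Fgf2 (0.450 ± 0.312). Only Fgfr1 and Ednrb, and Ednrb and Fgfr2, were neighbours whose libraries did not overlap. In GFP the order was Ece1 (11.2 ± 4.39), Fgfr1 (8.54 ± 3.41), Ednrb (1.88 ± 0.121), Edn2 (1.64 ± 0.827), Edn1 (1.33 ± 0.801), Fgfr2 (1.26 ± 1.03), Fgfr3 (0.962 ± 1.28), Edn3 (0.421 ± 0.158), Ednra (0.356 ± 0.229) and Fgf2 (0.192 ± 0.169), and only Fgfr1 and Ednrb did not overlap. In wild type it was Ece1 (13.5 ± 1.62), Fgfr1 (8.47 ± 0.963), Edn2 (2.25 ± 2.08), Fgfr2 (1.81 ± 1.10), Ednrb (1.72 ± 0.181), Edn1 (1.35 ± 0.212), Fgfr3 (1.00 ± 0.976), Edn3 (0.552 ± 0.368), Ednra (0.365 ± 0.0571) and Fgf2 (0.0671 ± 0.0741). There the neighbours Ece1 and Fgfr1, Fgfr1 and Edn2, Ednrb and Edn1, and Ednra and Fgf2 did not overlap. The protease and Fgfr1 had the highest levels per length in every group and Fgf2 the lowest.

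GFP against wild type is a comparison of retinae that are both labelled normal. None of the 10 members was called, as was the case for all genes (0 of 14300 by edgeR, 1 by DESeq2), and 1.5% of genes had an unadjusted p under 0.05. The lowest unadjusted p among the members was 0.18, for Fgf2, whose log2 difference was 1.53 ± 1.07 (adjusted p = 1). The median over the members was -0.04, with 0.01 over all genes, and no member separated the 2 groups, which 1.52% of genes did upwards and 2.46% downwards.

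Of the 5 genes of endothelin processing and degradation 4 were tested, and none passed in rd10 against wild type (median log2 difference -0.12) or against GFP. These were Ece2 (0.11, adjusted p = 0.614), a second converting enzyme, Mme (0.73, 0.35), which encodes the peptide-degrading enzyme neprilysin, its relative Mmel1 (-0.35, 0.239) and Ecel1 (-2.22, 0.0793). Kel had no count in any library. Of 6 genes for the G proteins and phospholipases C that act below endothelin receptors, 5 were tested and 1 rose against wild type, none against GFP, with a median of 0.72, and a call higher was made for 14.5% of all genes against wild type and for 15.2% against GFP. Plcb1, a phospholipase C, averaged 42.3 ± 3.66 CPM in rd10, 25.2 ± 8.94 in GFP and 23.2 ± 5.93 in wild type (SD, n = 3 each) and was 1.82-fold higher in rd10 than in wild type (adjusted p = 0.032). The call was lost without wild type 2, wild type 3 or any 1 rd10 library (adjusted p = 0.0621 to 0.11, over alternatives 0.00888 to 0.406). Gnaq (0.52, adjusted p = 0.0823), Gna11 (0.25, 0.22), Plcb3 (0.72, 0.0698) and Plcb4 (0.77, 0.0858) did not pass, and Plcb2 was too low to test.

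Of the 5 genes of the LIF branch, which stands before Edn2 in the known relay, 3 rose and 1 fell in rd10 against wild type, where 14.5% of all genes rose and 13.9% fell. The median was 0.84, and the same 4 passed in the same direction against GFP. Lif had 77 counts in rd10, against 9 in GFP and 13 in wild type, summed over 3 libraries. It was 4.55-fold higher in rd10 than in wild type (log2 difference 2.19 ± 0.57, adjusted p = 0.0163). Lif passed the filter on low counts only through its rd10 libraries (1.26 to 2.58 CPM), with at most 0.573 CPM in GFP and 0.481 in wild type. Lifr, its receptor, was 2.67-fold lower, with 34.1 ± 3.14 CPM in rd10, 95.7 ± 7.54 in GFP and 90.9 ± 15.0 in wild type (adjusted p = 0.00013), and passed in all 19 alternatives. Stat3, the transcription factor below the LIF receptor, was 1.79-fold higher (adjusted p = 0.0153), and Socs3, its feedback inhibitor, was 2.85-fold higher (adjusted p = 0.0137). Il6st, the shared receptor subunit gp130, differed by 0.74 and did not pass (adjusted p = 0.207). The call of Lif ended without wild type 3 (adjusted p = 0.0561), rd10 2 (0.0633) or rd10 3 (0.0528), that of Socs3 without wild type 3 (0.0505) or rd10 2 (0.0592), and that of Stat3 without wild type 2 (0.0551), wild type 3 (0.0559) or rd10 3 (0.0604). Over alternatives these p ran from 0.00709 to 0.38 for Lif, 0.0013 to 0.3 for Socs3 and 0.00154 to 0.353 for Stat3. Against GFP each of these 3 genes passed in 18 of 19 alternatives, all but the fit without the lens libraries (0.141 for Lif, 0.0819 for Socs3 and 0.06 for Stat3). The reactive glia markers given beside Ednrb rose with Lif, Stat3 and Socs3, while Lifr went the other way. The rod markers fell, as Lifr did. The part of either set of markers was not tested.

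Of the 21 other FGF ligand genes, 10 were expressed enough to test. In rd10 against wild type 5 of them rose and none fell (median 0.64), where 14.5% of all genes rose and 13.9% fell. Against GFP 4 rose (Fgf1, Fgf12, Fgf13 and Fgf14) and none fell, where 15.2% of all genes rose and 15% fell. The 3 with the smallest p encode FGF homologous factors, which stay inside neurons, bind sodium channels and do not act as secreted ligands. Neuronal markers rose beside them, with 4 of 6 ganglion cell, 4 of 5 amacrine cell and 3 of 5 bipolar cell markers called higher in rd10 against wild type, and their part was not tested. Fgf13 averaged 74.7 ± 8.01 CPM in rd10, 41.1 ± 4.06 in GFP and 36.1 ± 2.78 in wild type (SD, n = 3 each) and was 2.07-fold higher in rd10 than in wild type (adjusted p = 0.00078). Fgf12 was 1.54-fold higher (adjusted p = 0.0113) and Fgf14 2.11-fold higher (0.0158). Fgf11, a homologous factor too and named after its value was seen, did not pass. Its log2 difference was 0.26 against wild type (adjusted p = 0.603) and 0.33 against GFP (0.495). The others that rose against wild type, named after their values were seen, were the secreted ligands Fgf1 (1.37-fold, adjusted p = 0.0275) and Fgf10 (2.45-fold, 0.0224). Single libraries decided the calls of Fgf14 (lost without wild type 2, wild type 3, rd10 1 or rd10 3, adjusted p = 0.0506 to 0.0569), Fgf1 (lost without wild type 2, wild type 3 or any rd10 library, 0.0542 to 0.0877) and Fgf10 (lost without wild type 2, wild type 3, rd10 1 or rd10 2, 0.053 to 0.075). Against GFP, Fgf12 and Fgf13 passed in 18 of 19 alternatives each, Fgf1 in 15 and Fgf14 in 11.

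Among the other FGF receptors and co-receptors, 1 of 3 tested rose in each rd10 comparison (median 0.75 against wild type). Against GFP it was Fgfrl1 (log2 difference 0.71, adjusted p = 0.045), a receptor without a kinase domain, whose call held in 8 of 19 alternatives and was lost without wild type 2 or any 1 rd10 or GFP library (0.0559 to 0.127). Against wild type it was Kl, which encodes Klotho, a co-receptor of endocrine FGFs, at 2.15-fold (adjusted p = 0.0303), and the call was lost on leaving out any rd10 library, wild type 1 or wild type 2 (0.0531 to 0.0933, over alternatives 0.0111 to 0.363). Fgfr4 differed by 0.75 (adjusted p = 0.219) and Fgfrl1 by 0.64 (0.0639) in that comparison. Of 16 genes that carry the signal below FGF receptors 2 rose, 2 fell and 12 did not pass, with a median of 0.25 and shares over all genes of 14.5% higher and 13.9% lower, and against GFP 1 rose (Gab1) and 2 fell. Gab1, a docking protein, was 2.26-fold higher in rd10 than in wild type, with 59.9 ± 6.29 CPM in rd10, 25.8 ± 7.93 in GFP and 26.5 ± 5.22 in wild type (adjusted p = 0.00626). Map2k1, a MAP kinase kinase, was 0.40 higher on the log2 scale (adjusted p = 0.0425) and was named after its value was seen. The call of Map2k1 held in 9 of 19 alternatives and was lost without any 1 wild type library, rd10 1, rd10 2 or GFP 3 (0.051 to 0.121). Against GFP the call of Gab1 held in all 19.

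Of 13 FGF targets and feedback inhibitors 5 rose, 1 fell and 7 did not pass in rd10 against wild type, with a median of 0.84, and against GFP 6 rose and Spry2 fell. Over all genes 14.5% rose and 13.9% fell against wild type, and 15.2% rose and 15% fell against GFP. The Müller glia, microglia and bipolar cell markers given beside Ednrb rose with the genes that rose, and the rod markers fell, as Spry2 did. The part of these markers was not tested. Flrt3, a membrane protein that promotes FGF signalling, averaged 37.5 ± 3.17 CPM in rd10, 21.5 ± 4.09 in GFP and 18.0 ± 0.856 in wild type, and was 2.09-fold higher in rd10 than in wild type (adjusted p = 0.00214). The feedback inhibitors Spry1 and Dusp6, the second a phosphatase of ERK, were 2.14-fold (adjusted p = 0.00653) and 2.30-fold (0.00977) higher. The other three, named after their values were seen, were the feedback inhibitor Il17rd (log2 difference 1.53, adjusted p = 0.0118), the transcription factor Etv1 (1.03, 0.022) and Spry2 (-0.81, 0.00987). Spry2, a close relative of Spry1, thus went the other way, with 30.5 ± 2.70 CPM in rd10, 63.6 ± 14.1 in GFP and 53.2 ± 6.74 in wild type. Its call was lost with library totals (0.0521), and that of Etv1 without wild type 2, wild type 3, rd10 1 or rd10 3 (0.0635 to 0.0764).

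**Figure D5:**
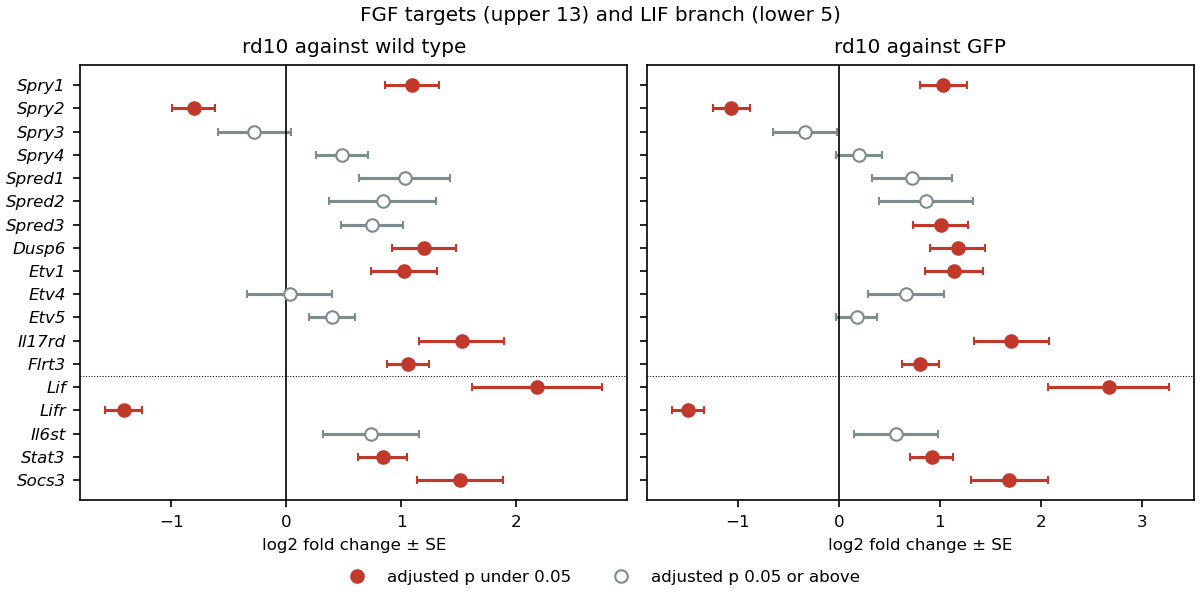
Log2 fold change ± SE of the 13 FGF targets and feedback inhibitors (above the dotted line) and the 5 genes of the LIF branch (below it) in rd10 against wild type and rd10 against GFP, filled where the adjusted p is under 0.05. In rd10 against wild type 5 targets and Lif, Stat3 and Socs3 are filled to the right of 0, and Spry2 and Lifr to the left.

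FGF binds its receptors together with heparan sulphate, a sugar chain carried by glypicans and syndecans. Of 20 genes of this group 19 were tested, and 7 rose and 1 fell in rd10 against wild type (median 0.46), while 9 rose and 1 fell against GFP. The shares of all genes were 14.5% and 13.9% against wild type and 15.2% and 15% against GFP. The gene that fell in both was Ext1, an enzyme that builds the chain, with 29.5 ± 3.05 CPM in rd10, 97.4 ± 25.1 in GFP and 80.0 ± 7.95 in wild type (log2 difference -1.44, adjusted p = 0.000475). The glypican Gpc6 (0.99, adjusted p = 0.00105) and Sulf2 (1.20, 0.00143), which takes sulphate groups off the chain, were the higher genes with the smallest p. Rod markers fell, as Ext1 did, while Müller glia, microglia and bipolar cell markers rose, and their part was not tested. Without the 4 libraries with lens transcripts, which left 1 wild type library, each pathway gene named as called above except Lifr missed the threshold against wild type (for Ext1 0.0668, for Sulf2 0.0811 and for Gpc6 0.213).

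The genes whose profile over the 9 libraries was most like that of Edn2, by the root mean square difference of log2 CPM centred on the wild type mean, were Six5 (0.51), 6030429G01Rik (0.51) and Zfp52 (0.52), none called in rd10 against wild type. Those most like Fgf2 were Dok6 (0.47), Fgf3 (0.59) and AF529169 (0.64), each with 0 counts in at least 1 library, as had Fgf2. Of these AF529169 was called higher (log2 difference 2.80, adjusted p = 0.0287). The likeness is a description of low counts over shared libraries.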

How the data were processed

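RNA of whole mouse retina was sequenced in 9 libraries (3 rd10, 3 GFP, 3 wild type), which the design text calls biological replicates. The deposited files hold raw read counts per gene, which the authors made on build mm9, per the submitters' processing notes. The aligner, counting program, strand setting and treatment of multiply matching reads are not given in the sources used here. Genes were kept by filterByExpr (minimum count 10, minimum total 15), leaving 14300. One edgeR 4.0.16 model (R 4.3.3) with TMM scaling and a mean per group was fitted to all libraries, and groups were compared by the quasi-likelihood F-test, with Benjamini-Hochberg adjustment over all genes and a threshold of 0.05. The label Gg13 was read as the GFP line. Transcript lengths were the longest GENCODE M21 transcript of each gene (90.36% of tested genes had one). Floors of 3 counts cover counting error only.

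The members and gene lists were chosen with earlier results of these data known. All members were named, and of each pathway list the 3 called genes with the smallest adjusted p, or all genes of lists of 6 or fewer. Some genes of the transduction list are not reported here. Alternatives were DESeq2 1.42.0, other scalings, no filter, a replicate block, only the 2 groups compared and each library left out. Added after the data were seen were the fits without the 4 libraries whose lens sum exceeded 1000 CPM, a fit that left out wild type 3 and GFP 2, and a fit after a lowess trend on transcript length was taken out. Sequences are from GENCODE M21 transcripts and RefSeq promoters.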

Additional observations from a re-analysis of the deposited data

How the results depend on the processing

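Among the members, 2 were called in rd10 against wild type and 3 in rd10 against GFP. In rd10 against wild type the count was 4 with library totals, 4 with only the 2 groups, 0 without the 4 libraries with lens transcripts, 5 without wild type 3 and GFP 2, and 2 to 4 on leaving out each library (4 without GFP 2). Against GFP it was 5 with library totals, 5 without wild type 3 and GFP 2, and 2 to 4 on leaving out each library. Edn3 also passed against GFP with DESeq2 (adjusted p = 0.027), upper quartile scaling (0.0456) and the length trend removed (0.0472). With only the 2 groups Edn3 passed against GFP (0.0467) and Ece1 did not (0.0525). Fgf2 also passed against wild type with DESeq2. In GFP against wild type the count of members was 0 throughout. Over all genes, calls numbered 543 in rd10 against wild type and 1846 against GFP without the lens libraries, where 4055 and 4312 were called with all 9, and ran from 2455 to 5421 and from 2602 to 4404 on leaving out each library. Fewer samples stood behind each of these fits. In GFP against wild type DESeq2 called 1 gene, and leaving out each library gave 0 to 4. Library totals moved the median of all genes by 0.29 in rd10 against wild type and by 0.33 against GFP, so that 77.0% and 79.3% of calls were higher, where 51.0% and 50.4% were with TMM. Upper quartile scaling moved the second by 0.10 (62.5% higher). Signs turned only for differences that no setting called. In rd10 against wild type these were Edn2 without the lens libraries (-0.97) or wild type 3 and GFP 2 (-0.11), and Fgfr3 with the replicate block (-0.0325), without wild type 3 and GFP 2 (-0.23) or with the length trend removed (-0.11). Against GFP Fgfr3 turned without wild type 3 and GFP 2 (-0.44) and after removal of the length trend (-0.009). In GFP against wild type they were Edn1 (0.14) and Edn3 (0.59) without the lens libraries, Edn3 (0.039), Ednra (0.30) and Fgfr3 (0.21) without wild type 3 and GFP 2, Ednra with DESeq2 (0.0081), RLE factors (0.0074) or no filter (0.0055), and Fgfr1 with library totals (-0.0171), upper quartile (-0.015), the block (-0.0439), the length trend removed (-0.0265) or the lens libraries left out (-0.22). On leaving out each library, differences that turned ran from -0.11 to 1.41 for Edn2 and -0.51 to 1.19 for Fgfr3 in rd10 against wild type, and from -0.49 to 2.16 for Fgfr3 against GFP. In GFP against wild type they ran from -0.51 to 0.0371 (Ece1), -0.61 to 0.23 (Edn1), -0.92 to 0.62 (Edn2), -0.72 to 0.27 (Edn3), -0.38 to 0.43 (Ednra), -0.30 to 0.30 (Fgfr1), -1.29 to 0.093 (Fgfr2) and -2.11 to 1.12 (Fgfr3). The cause was not tested. No pairing by replicate number was seen in the deviations of the libraries from their group means. Same-numbered libraries correlated at -0.37 to 0.36 (9 pairs), others at -0.43 to 0.49 (18 pairs), and 1 of 9 libraries correlated best with its own number. These deviations also hold the lens and transcript-length differences between libraries, so a weaker pairing could be missed. The replicate block called 2 and 3 members, as without it, and 3606 and 3908 genes. Depth limits Fgf2 and Ednra most, the members with the fewest counts.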
